A study of Mus musculus with 17 samples.

Results

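Innate lymphoid cells (ILCs) of mouse dorsal skin were compared between 2 single-cell RNA-seq libraries, 1 taken on day 0 and 1 taken on day 10 after hair removal. Every cell with at least 200 detected genes entered the comparison, which gave 564 cells on day 0 and 454 on day 10. These 1018 cells were drawn from the 5459 that passed the same limit in the 3 single-cell libraries of a series of 17 samples. The third single-cell library, of skin ILCs with no day given, held 4441 such cells and is named here only where its level of a gene bears on a result. All cells of both dorsal tables passed the limit, and the cell with the fewest detected genes had 493 on day 0 and 504 on day 10. Both libraries carried the labels C57BL/6 for strain, skin for tissue and ILC for cell type. Neither the number, sex nor age of the mice nor any pooling was given in the sources used here. A gate of live cells without lineage markers and without the γδ T cell receptor, but with CD90, was described for the bulk libraries of the series. For the single cells the labels say only that ILCs were sorted from ear and dorsal skin. A tamoxifen protocol in the labels names wild-type and floxed Gata3 mice and does not name these libraries.

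Hair removal during the resting phase of the hair cycle makes the follicles enter a new growth phase together. ILCs are tissue lymphocytes that lack rearranged antigen receptors and answer cytokines released by epithelium. Group 2 ILCs (ILC2s) depend on the transcription factor GATA3, respond to the alarmin IL-33 through its receptor ST2 (encoded by Il1rl1), and make IL-5, IL-13 and the epidermal growth factor family ligand amphiregulin (Areg). Group 3 ILCs make IL-17A, IL-17F and IL-22, and group 1 ILCs make interferon-γ under the control of T-bet (Tbx21). The comparison asks which of these programmes differed in skin ILCs between the start of the time course and day 10.

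Each day was represented by 1 library, so no spread between animals could be measured and no p-value is given. Ratios below are day 10 over day 0 of summed counts per 1000000 autosomal counts (CPM), on the log2 scale, with exact 95% Poisson counting intervals in square brackets. Shares of cells are followed by exact 95% Clopper-Pearson intervals where brackets are given. Both kinds of interval cover counting error only. Fewer cells that express a gene and less RNA per cell cannot be told apart in a summed count, so shares of cells are set beside the sums. The day 0 library held 1204618 counts with a median of 2001 per cell, and the day 10 library 892449 with a median of 1826. Shares were therefore also computed after each cell was thinned to 1000 counts, which left out 44 cells on day 0 and 39 on day 10. No cell name occurred in both dorsal libraries, and 4 names of day 0 also occurred in the third library.

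The libraries also differed in sex-linked transcripts. Xist, the RNA that coats the inactive X chromosome in female cells, had 917 counts in 346 cells on day 0 and 79 counts in 51 cells on day 10. The Y-linked Ddx3y had 2 counts on day 0 and 381 counts on day 10, in 2 and 199 cells. Of the day 10 cells, 216 had counts of Y-linked genes alone, 24 of Xist alone, 27 of both and 187 of neither. On day 0 the same classes held 2, 342, 4 and 216 cells. The day of the time course and the sex of the animals therefore cannot be told apart in any result below, although all genes compared are autosomal. For the leading genes, the level in day 10 cells with Xist alone is given beside that in cells with Y-linked counts alone. Of the 51 day 10 cells with Xist, 27 also had Y-linked counts, so a cell with Xist alone is not shown to be female. This split therefore cannot separate sex from day.

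The ILC label was checked against its markers. Thy1, which encodes the CD90 of the gate, was detected in 91.1% of cells on day 0 and 84.1% on day 10. Il7r, the interleukin-7 receptor chain of ILCs and T cells, was found in 78.4% and 74.7%, and Id2, a regulator required for ILC development, in 83.5% on both days. At least 3 of 6 such genes (Thy1, Ptprc, Id2, Il7r, Il2rg and Rora) were detected in 97.9% and 97.4% of cells. Cd3e, a defining chain of the T cell receptor complex, was found in 6 cells on day 0 and 2 on day 10. Any of Cd3d, Cd3e and Cd3g was found in 10.1% [7.74 to 12.9] and 17% [13.6 to 20.7] of cells, nearly all of it Cd3g. The γδ receptor constant genes Trdc or Tcrg-C4 had a count in 27.3% [23.7 to 31.2] of cells on day 0 and 15.2% [12 to 18.8] on day 10, although the gate described for the bulk cells excludes surface γδ receptor. Transcripts of other cells were shared by both libraries. At least 2 myeloid genes were detected in 34.4% and 35.0% of cells, at least 2 keratinocyte genes in 2.13% and 0.661%, and at least 2 endothelial genes in 0 cells on both days. Cst3 had the most counts of the myeloid list, in 44.3% and 44.1% of cells. In the third library Cst3 was found in 39.8% of cells and Lyz2 in 0.563%, so Cst3 alone does not mark myeloid transcripts there. The immunoglobulin gene Igkc, which ILCs do not express, was found in 12.4% and 13.4% of cells, and the macrophage gene C1qb in 10.1% and 11%. The 5 highest cells held 35.8% and 38.7% of the Igkc counts. Whether such shares come from free RNA was not tested. The summed level of 25 myeloid genes was 828 CPM on day 0 and 941 CPM on day 10, with Lyz1 and Cd207 at 0, and that of 31 keratinocyte genes 248 and 162 CPM, with 19 of them at 0, Trp63 and Lor included. The 15 mast cell genes summed to 298 and 428 CPM, most of it Kit, with Tpsb2 and Fcer1a at 0. The 17 fibroblast genes summed to 45 and 43.2 CPM, with Pdgfra at 0. The part of such transcripts in the results below was not tested.

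Among 34217 autosomal genes in the tables, 5102 had at least 50 summed counts over both days. A gene is called past the fold here when its CPM differed at least 2-fold. By that rule 69 genes were higher on day 10, which is 1.35% of those compared, and 72 were lower, which is 1.41%. Together these 141 genes made up 2.76%. Every one of them had a counting interval that excluded equal levels, which the minimum of 50 counts and the 2-fold rule already bring about. For only 10 of the higher and 6 of the lower genes did the whole interval lie beyond 2-fold. Of the genes past the fold, 45 of the higher and 52 of the lower had fewer than 100 summed counts. The median ratio of all genes compared was -0.03, with 2330 genes (45.7%) above 0 and 2772 below. These shares over all genes are the background for the list counts below. The plot of levels on both days shows most genes close to the line of equal levels.

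**Figure D1:**
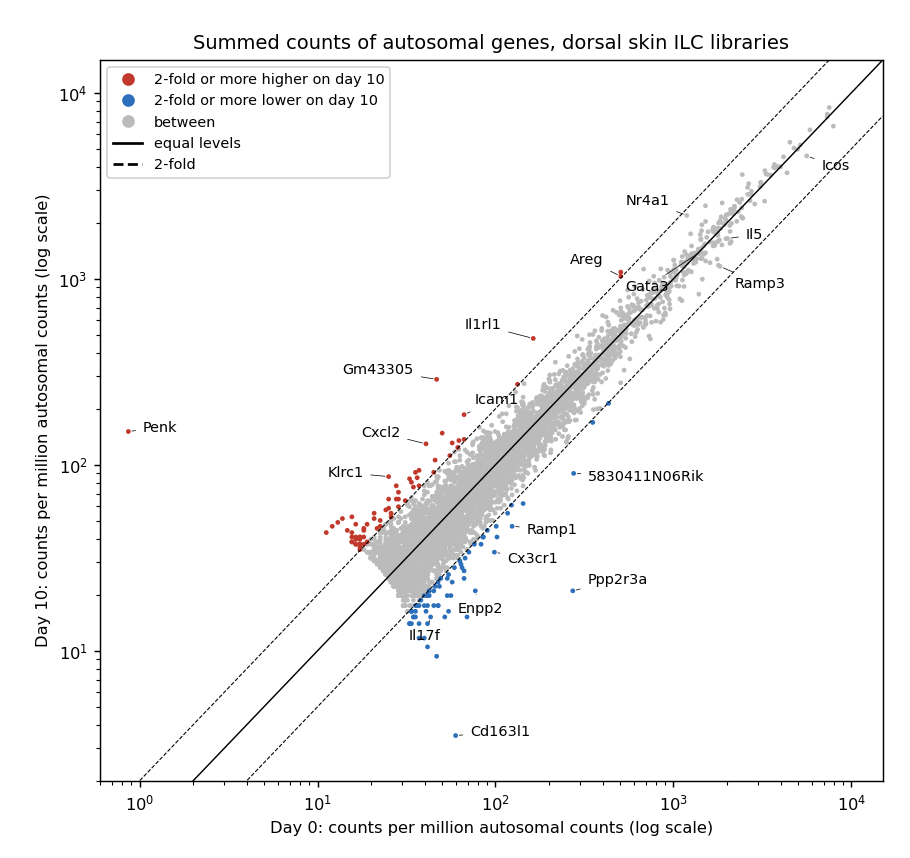
Summed counts per 1000000 autosomal counts of the 5102 autosomal genes with at least 50 summed counts, day 0 on the x axis and day 10 on the y axis, both on log scales. Each point is a gene and each axis is 1 library. Red points (69) were 2-fold or more higher on day 10 and blue points (72) 2-fold or more lower, with Penk farthest from the line of equal levels, followed by Cd163l1 and Ppp2r3a.

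The results turn on a small number of genes, and for 3 of those that were higher on day 10 the bases before the transcription start are shown to place them in the genome. Areg was chosen as the growth factor gene of the comparison, Il1rl1 as its leading receptor gene and Cxcl2 as its leading chemokine gene. Windows are the 250 bases before the RefSeq start in GRCm38.p6, all on the plus strand. Areg lies at chr5:91139349-91139598, Il1rl1 has 2 starts with windows at chr1:40429320-40429569 and chr1:40439379-40439628, and Cxcl2 lies at chr5:90903649-90903898. Capitals mark every match to the motifs searched on both strands.
Areg: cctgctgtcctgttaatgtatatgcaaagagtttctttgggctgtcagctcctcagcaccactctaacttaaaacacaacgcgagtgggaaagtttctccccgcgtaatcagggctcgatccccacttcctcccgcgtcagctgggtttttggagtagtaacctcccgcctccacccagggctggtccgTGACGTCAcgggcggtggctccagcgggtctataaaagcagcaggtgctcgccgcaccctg
Il1rl1, first start: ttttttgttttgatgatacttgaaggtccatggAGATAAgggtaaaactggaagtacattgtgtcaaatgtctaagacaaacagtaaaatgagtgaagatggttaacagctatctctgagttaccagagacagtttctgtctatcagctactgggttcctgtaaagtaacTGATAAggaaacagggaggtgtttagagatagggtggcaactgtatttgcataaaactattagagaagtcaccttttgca
Il1rl1, second start: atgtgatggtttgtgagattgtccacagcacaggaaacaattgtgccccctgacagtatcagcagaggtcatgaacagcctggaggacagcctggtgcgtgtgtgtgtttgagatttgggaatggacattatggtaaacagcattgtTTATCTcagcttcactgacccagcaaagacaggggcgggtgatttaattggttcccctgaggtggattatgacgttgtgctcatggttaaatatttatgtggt
Cxcl2: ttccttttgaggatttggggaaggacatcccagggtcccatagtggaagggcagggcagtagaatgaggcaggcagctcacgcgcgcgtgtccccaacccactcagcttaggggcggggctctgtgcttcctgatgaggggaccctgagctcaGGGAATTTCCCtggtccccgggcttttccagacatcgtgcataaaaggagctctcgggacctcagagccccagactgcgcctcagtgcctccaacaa
The searched motifs were the cAMP response element TGACGTCA and its variant TGCGTCA, the AP-1 element TGANTCA, the GATA elements AGATAA and TGATAA, the NR4A element AAAGGTCA, and the κB element by name. In the Areg window the only match was TGACGTCA, which begins 61 bases before the start and occurs in 1.58% of 31396 autosomal windows of the same length. The first Il1rl1 window holds AGATAA 217 bases and TGATAA 80 bases before the start, and the second holds AGATAA on the reverse strand (TTATCT) 103 bases before its start. These GATA elements occur in 9.94% and 7.92% of windows. The Cxcl2 window holds a pair of overlapping κB matches that begin 97 and 96 bases before the start, and 7.34% of windows hold at least 1. A match describes letters in the window and not a bound site. The deposited counts do not separate the 2 starts of Il1rl1.

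Receptor and effector genes of ILC2s did not move as a block. Of 18 ILC2 list genes with enough counts, 3 (Il1rl1, Areg and Arg1) were past the fold upwards and 1 (Ramp1) downwards, the list median was 0.00, and 9 genes lay on each side of 0. Over all genes compared, 1.35% were past the fold upwards and 1.41% downwards. Gata3, the defining ILC2 transcription factor, had 1425 CPM on day 0 and 1402 CPM on day 10, a ratio of -0.02 [-0.13 to 0.09]. It was detected in 70.4% and 71.1% of cells. Rora, another transcription factor of ILC2 development, stood at 2744 and 2963 CPM, and Icos, a costimulatory receptor of ILC2s, at 5609.9 and 4579 CPM. Gata3 was thus level, Icos lower by less than 2-fold, and the genes past the fold were single receptor, ligand and enzyme genes.

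Il1rl1 (chr1:40429570-40465415, plus strand) showed the largest difference of any cytokine receptor gene. It had 188 counts on day 0 and 409 on day 10, or 163 and 478 CPM, a ratio of 1.55 [1.30 to 1.81]. It was the only one of 22 cytokine receptor genes past the fold, and the median of that list was 0.03. The share of cells with a count was 8.69% (49 cells) on day 0 and 21.1% (96 cells) on day 10, and after thinning 6.15% and 17.8%. Cells with a count held 3.84 counts each on average on day 0 and 4.26 on day 10, so the difference lay mainly in the number of cells. In cells with a count of 5830411N06Rik, a gene known from γδ T cells, Il1rl1 was found in 2.15% on day 0 and 7.14% on day 10, against 9.98% and 22.1% of the remaining cells, at median depths of 2055 and 2044 against 1998 and 1818 counts. Day 10 cells with Xist alone had 187 CPM [80.7 to 368] from 8 counts in 3 cells, those with Y-linked counts alone 459.8 CPM [399 to 527], and day 0 cells with Xist alone 147 CPM [121 to 177]. A count was found in 12.5% [2.66 to 32.4], 21.8% [16.4 to 27.9] and 8.77% [6.00 to 12.3] of these cells in turn. By share of cells, the few day 10 cells with Xist alone could not be told from either of the other classes. The third skin library had 234 CPM.

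Other receptors for cytokines of the IL-2 and IL-1 families showed smaller differences in both directions. Il2ra, the high-affinity IL-2 receptor chain, had 501 CPM on day 0 and 762 on day 10, and was found in 37.9% and 51.5% of cells. Il18rap, a chain of the IL-18 receptor, stood at 362 and 525 CPM, whereas its partner Il18r1 was at 602 and 598 CPM. Il17rb, the receptor chain for the alarmin IL-25, had 73.5 and 74.7 CPM, and Crlf2, the receptor for TSLP, 80.4 and 88.7 CPM. Of the 3 epithelial alarmin receptors, then, only that for IL-33 differed by more than its counting error. Lower values on day 10 were those of Il2rb, the shared IL-2 and IL-15 receptor chain, with a ratio of -0.42 [-0.52 to -0.33], and of Ifngr1, the interferon-γ receptor chain, with -0.54 [-0.70 to -0.38].

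Areg (chr5:91139599-91148432, plus strand) had 585 counts on day 0 and 884 on day 10, or 506 and 1032 CPM, a ratio of 1.03 [0.88 to 1.18]. Amphiregulin is a ligand of the epidermal growth factor receptor that ILC2s release in tissue repair. Its transcript was found in 29.6% [25.9 to 33.6] of cells on day 0 and 41.4% [36.8 to 46.1] on day 10, and in 21.9% and 32.8% after thinning. The mean count per cell with a count was 3.50 and 4.70, and the cell with the most counts held 21 on day 0 and 51 on day 10. Both the number of Areg cells and the counts in them were thus higher. Day 10 cells with Xist alone had 1752 CPM [1378 to 2196], from 75 counts in 12 of 24 cells. Those with Y-linked counts alone had 866 CPM [781 to 957]. Both sums lay above the 491 CPM [443 to 544] of day 0 cells with Xist alone. A count was found in 50% [29.1 to 70.9], 39.8% [33.2 to 46.7] and 30.4% [25.6 to 35.6] of these cells in turn. These intervals overlap, so by share of cells the day 10 cells with Xist alone could not be told from either other class. The ratio of Areg lay close to the 2-fold line and ranged from 0.84 to 1.07 over the other ways of processing, past the fold in 11 of 12.

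The type 2 cytokines Il5 and Il13, neighbours on chromosome 11, differed in opposite directions. Il13 had 458 CPM on day 0 and 677 on day 10, a ratio of 0.56 [0.39 to 0.74], and was found in 29.1% and 41.2% of cells. Il5 had 2015 and 1645 CPM, a ratio of -0.29 [-0.39 to -0.20], although 45.9% and 48.2% of cells had a count. Cells with an Il5 count held 9 counts on average on day 0 and 6.43 on day 10, and the highest cell held 142 and 59. With every cell weighted the same, or another of the processing alternatives, the Il5 ratio ranged from -0.33 to -0.00. The Il5 difference was therefore carried by cells with many counts and not by the number of cells. Csf2, the gene of the cytokine GM-CSF, had 74 and 45 counts, a ratio of -0.28 [-0.85 to 0.27] that was not distinguishable from 0 at this depth. Arg1, an enzyme of arginine metabolism found in ILC2s, had 18 and 45 counts in 2.48% and 5.95% of cells, a ratio of 1.75 [0.94 to 2.63].

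**Figure D2:**
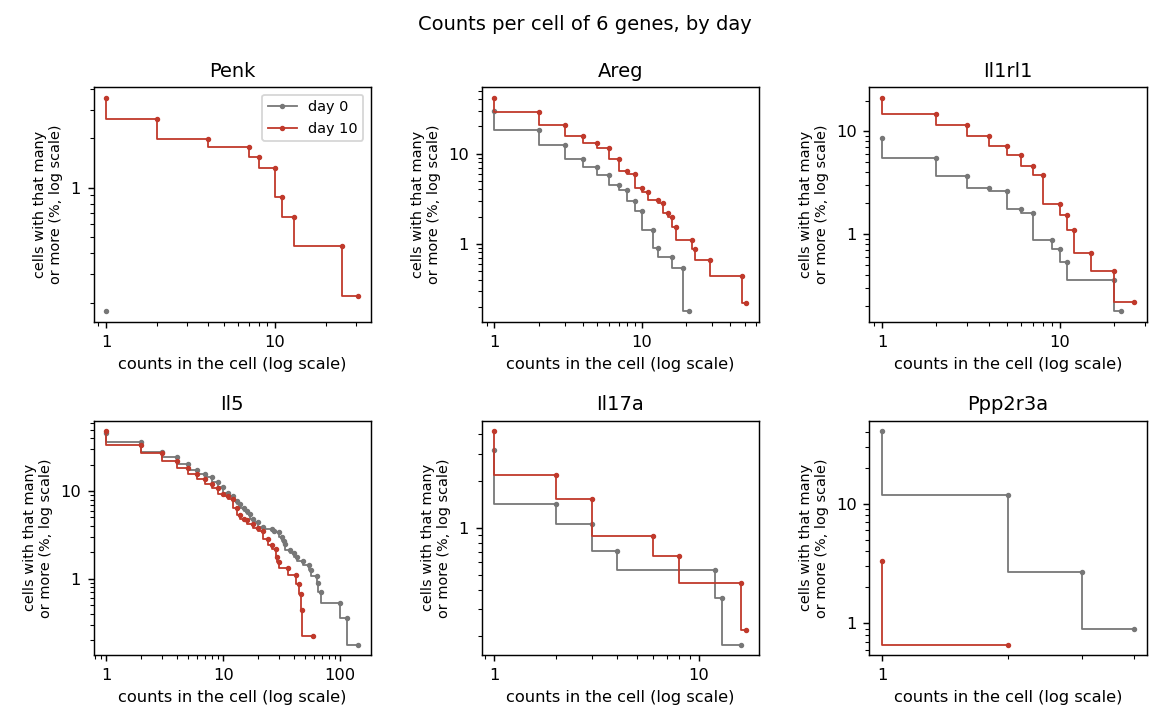
Counts per cell of 6 genes on day 0 (grey, 564 cells) and day 10 (red, 454 cells). The x axis is the number of counts in a cell and the y axis the percentage of cells with at least that many counts, both on log scales. The red curves of Penk, Areg and Il1rl1 begin above the grey, those of Il5 begin together and part at high counts, with highest cells of 142 and 59, and the red curve of Ppp2r3a lies below the grey throughout.

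Type 2 transcripts occurred together more often on day 10. Cells with both Il1rl1 and Areg made up 4.43% [2.89 to 6.47] of day 0 and 13.4% [10.4 to 16.9] of day 10, and cells with both Il1rl1 and Il13 3.55% and 12.8%. Areg and Il13 were found together in 12.4% and 22.2%. Each of these genes was itself more widely detected on day 10. Among Il1rl1 cells, Areg was present in 51.0% on day 0 and 63.5% on day 10, and Il13 in 40.8% and 60.4%. Among the cells without an Il1rl1 count, Areg was present in 27.6% and 35.5% and Il13 in 28.0% and 36%. Il1rl1 cells had more counts than the others, with medians of 2225 against 1955 on day 0 and 2207 against 1774 on day 10, and that difference bears on all these shares. Gata3 was detected in 93.9% and 88.5% of Il1rl1 cells. Cd3e was at 0 in the Il1rl1 cells of both days, but only 6 and 2 cells of the libraries had it, so this 0 tells little. Cd3g was found in 14.3% and 16.7% of Il1rl1 cells, against 8.54% and 15.9% of the others. Trbc1 was found in 46.9% and 62.5%, against 52.6% and 56.4%.

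**Figure D3:**
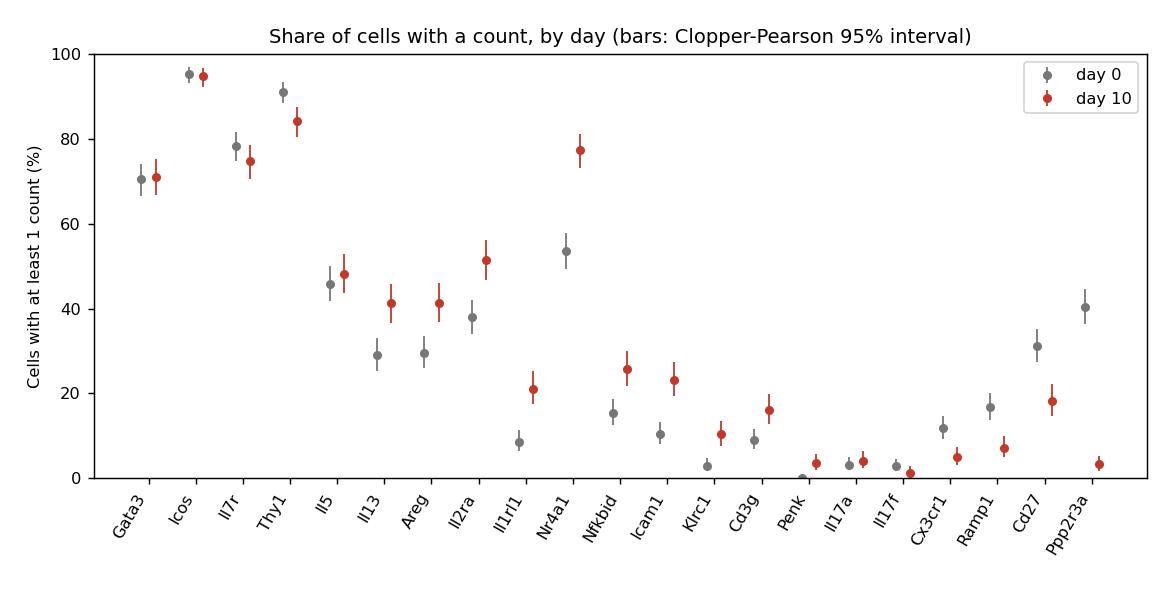
Share of cells with at least 1 count of 21 genes on day 0 (grey) and day 10 (red), in percent on the y axis, with 95% Clopper-Pearson intervals as bars. Gata3 stands at 70.4% and 71.1%, Il1rl1 at 8.69% and 21.1% and Ppp2r3a at 40.4% and 3.30%.

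Among 14 genes for signals to epithelium and hair follicle, Areg and Penk were past the fold upwards and Tnfsf11 downwards, and the list median was 0.03. The background over all genes compared was 1.35% upwards and 1.41% downwards. Penk (chr4:4133531-4138819, minus strand) encodes proenkephalin, the precursor of the enkephalin opioid peptides. It had 1 count on day 0 and 129 on day 10, or 0.865 and 151 CPM, a ratio of 7.44 with a counting interval of 4.94 to 12.76. The counts came from 1 cell on day 0 and 16 cells on day 10, which is 0.177% [0.00449 to 0.984] and 3.52% [2.03 to 5.66] of cells. The highest cell held 31 counts and the 5 highest held 69.8% of all Penk counts, so this ratio rests on few cells. The third skin library had 20 CPM. Of the 16 cells, 7 had Y-linked counts alone and 9 had neither kind, and 0 of the 24 day 10 cells with Xist alone had a Penk count. The antisense gene A830012C17Rik overlaps the start of Penk, and counting by strand is not given in the sources used here.

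The 16 Penk cells of day 10 carried type 2 transcripts. Areg was found in 14 of them (87.5% [61.7 to 98.4]) against 39.7% of the other day 10 cells. Il1rl1 was found in 9 (56.2% [29.9 to 80.2]) against 19.9%, and Calca, the gene of the neuropeptide CGRP, in 12 (75% [47.6 to 92.7]) against 33.6%. Klrc1 was found in 6 (37.5% [15.2 to 64.6]) against 9.36%. Penk cells thus stood above the others in all 4 genes, at a median depth of 1887 against 1826 counts. For Gata3 no difference could be detected, with 75% [47.6 to 92.7] against 71.0%. Arg1, Il17a, Tcrg-C4 and Cd3e were at 0 in the 16 cells, which allows a share of up to 20.6%. The other cells had 6.16%, 4.34%, 12.3% and 0.457%, so these zeros do not set the Penk cells apart.

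The remaining signal genes differed less. Tnfsf11, which encodes the cytokine RANKL, had 41 counts on day 0 and 13 on day 10, a ratio of -1.22 [-2.25 to -0.30]. Vegfa, an angiogenic growth factor, had 163 and 121 CPM. Jag1, a Notch ligand, had 131 and 194 CPM, and Bmp7, a bone morphogenetic protein, 22.5 and 44.4 CPM from 26 and 38 counts. Tgfb1 was nearly level at 173 and 179 CPM. Furin, the protease that matures many such ligands, had 1515 and 1380.0 CPM. Several classical follicle signals were not measurable in these cells, with 0 counts on both days for Fgf7, Fgf10, Hgf and Wnt4.

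Among lists with at least 5 genes compared, chemokine genes had the highest median, at 0.51 over 5 genes. Cxcl2, a neutrophil chemoattractant, had 47 counts on day 0 and 111 on day 10, or 40.7 and 129.6 CPM, a ratio of 1.67 [1.17 to 2.2]. The 5 highest cells held 55.3% and 59.5% of its counts, and it was found in 4.08% and 6.61% of cells. The highest cell alone held 16 of the 47 counts on day 0 and 24 of the 111 on day 10. The Cxcl2 ratio therefore rests on few cells, and its interval takes counts within a cell as independent. Ccl5, a chemokine of cytotoxic lymphocytes, had 42 and 73 counts, a ratio of 1.23 [0.66 to 1.81]. It was past the fold in 7 of the 12 other settings. The summed level of myeloid genes, which can also carry Cxcl2, was 828 and 941 CPM, and their part in its ratio was not tested. Xcl1, which attracts cross-presenting dendritic cells, had 91 and 96 counts.

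Feedback genes of the NF-κB pathway lay mostly above 0 in ratio. This pathway switches on its own inhibitors, and 18 of 19 such feedback genes had a ratio above 0 (Relb only just), with a median of 0.41 against -0.03 over all genes, although only Icam1 was past the fold. Icam1, an adhesion molecule, had 77 counts on day 0 and 159 on day 10, a ratio of 1.48 [1.08 to 1.89], in 10.5% and 23.1% of cells. Nfkbid, which encodes an atypical inhibitor of NF-κB, was found in 15.4% and 25.8% of cells, with a ratio of 0.91 [0.62 to 1.21]. Tnip1 and Birc3, a negative regulator and a survival factor of the pathway, had ratios of 0.70 and 0.75. The exception was Tnfaip3, which encodes the deubiquitinase A20, with 1708 and 1513 CPM and a ratio of -0.17 [-0.28 to -0.07]. Icam1 stood at 140.1 CPM [51.4 to 305] in day 10 cells with Xist alone, 169 CPM [133 to 212] in those with Y-linked counts alone and 71.3 CPM [53.6 to 93] in day 0 cells with Xist alone.

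Immediate early genes did not share 1 direction. Their list had a median of 0.08 over 31 genes and 1 gene past the fold, Rhob. Nr4a1, an orphan nuclear receptor induced by cell activation, had 1189 CPM on day 0 and 2191 on day 10, a ratio of 0.88 [0.78 to 0.98], and was detected in 53.5% and 77.3% of cells. Nr4a2 and Nr4a3, its relatives, had ratios of 0.51 and 0.25, and Junb and Jund, of the AP-1 family, 0.44 and 0.29. Fos and Fosb, which are the classical early response to tissue dissociation as well as to stimulation, stood the other way at -0.36 [-0.50 to -0.21] and -0.28 [-0.45 to -0.12]. Fosl2, of the same family, had 0.20 [0.10 to 0.30], and Egr1 had -0.28 [-0.71 to 0.14]. The 3 NR4A genes thus lay above 0 with their whole intervals, Fos and Fosb below it, and Egr1 could not be told from 0. Rhob had 72 and 116 counts, a ratio of 1.12, which ranged from 0.13 to 1.30 over the other settings.

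Of 19 heat shock and chaperone genes, 15 had a ratio above 0, the median was 0.25 and none was past the fold. Over all genes compared, 45.7% had a ratio above 0. Hspa8, the constitutive cytosolic HSP70, had 1514 and 2471 CPM, a ratio of 0.71 [0.61 to 0.80]. Its level was 2453 CPM in day 10 cells with Xist alone and 2473 CPM in those with Y-linked counts alone, against 1472 CPM in day 0 cells with Xist alone. Hsph1 and Hspe1, co-chaperones of the cytosol and the mitochondrion, had ratios of 0.78 and 0.64. Hsp90aa1 was level at 870.1 and 883 CPM. Handling of the 2 samples at collection was not given in the sources used here, and its part in these transcripts was not tested.

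**Figure D4:**
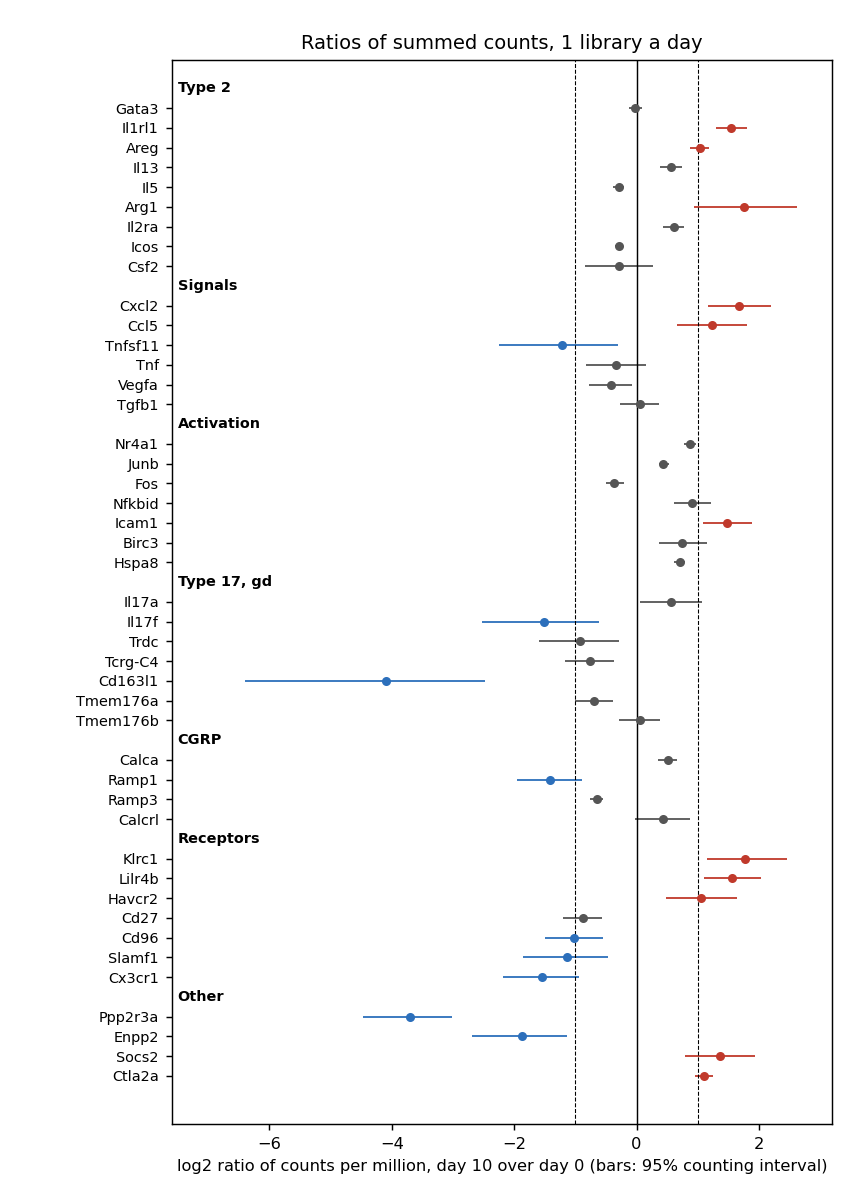
Log2 ratios of day 10 over day 0 for 44 genes in 7 groups, on the x axis, with 95% counting intervals as bars and dashed lines at the 2-fold limits. Red marks a ratio of 1 or more and blue a ratio of -1 or less. Il1rl1 at 1.55 and Ppp2r3a at -3.70 lie beyond the limits with their whole intervals, and Gata3 lies at -0.02.

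Type 17 genes were sparse on both days. Il17a and Il17f are neighbouring cytokine genes on chromosome 1. Il22 had 517 counts (53.5 CPM) in 8.33% of cells of the third skin library, but 0 counts in both dorsal libraries. Taken as 3 cells of the total, a count of 0 allows a share of cells with a count of up to 0.532% on day 0 and 0.661% on day 10, and the exact Clopper-Pearson upper bounds are 0.652% and 0.809%. Il17a had 65 counts in 18 cells on day 0 and 71 in 19 cells on day 10, a ratio of 0.56 [0.05 to 1.07]. Il17f had 50 counts in 16 cells and 13 in 6 cells, a ratio of -1.51 [-2.52 to -0.61]. The 5 highest cells held 73.8% and 70.4% of the Il17a counts and 74% and 92.3% of the Il17f counts. Both ratios thus rest on a few cells. The shares of cells with Il17a, 3.19% [1.90 to 5.00] and 4.19% [2.54 to 6.46], could not be told apart. Il17f and Il17a occurred together in 5 of the 16 Il17f cells on day 0 and in 1 of 6 on day 10. Of 14 ILC3 and type 17 genes none was past the fold upwards and 2 (Il17f and Tnfsf11) were past it downwards, and the list median was 0.04. Tmem176a, an ion channel gene of type 17 cells, had 248 and 154 CPM, while its partner Tmem176b had 151 and 158 CPM. Kit, a receptor found on ILC3s and on a share of ILC2s, had 258 and 383 CPM.

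T cell genes as a list did not lean to either day. Of 12 with enough counts, 6 lay above 0 and 6 below, the median was 0.01, and Cd3g alone was past the fold, upwards. Within that list the γδ receptor genes Trdc and Tcrg-C4 were lower on day 10, by less than 2-fold. Trdc had 74 counts on day 0 and 29 on day 10, a ratio of -0.92 [-1.59 to -0.28], and Tcrg-C4 had 176 and 77, a ratio of -0.76 [-1.17 to -0.37]. The neighbouring genes Cd163l1 (chr7:140218267-140231145) and 5830411N06Rik (chr7:140247284-140300736) encode scavenger receptor proteins known from γδ T cells. Cd163l1 had 69 counts in 33 cells on day 0 and 3 counts in 2 cells on day 10, a ratio of -4.09 with a counting interval of -6.40 to -2.48. 5830411N06Rik had 318 counts in 93 cells and 77 counts in 28 cells, a ratio of -1.61 [-1.99 to -1.25]. Both genes were singled out after their values were seen. A count of either was found in 21.6% [18.3 to 25.3] of cells on day 0 and 6.61% [4.50 to 9.30] on day 10. Only 4 cells of day 0 and 0 of day 10 had both.

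Cells with a 5830411N06Rik count differed from the other cells on each day. Il5 was found in 19.4% of them against 51.2% of the rest on day 0, and in 10.7% against 50.7% on day 10. Calca was found in 5.38% against 25.1% and in 7.14% against 36.9%. Tcf7, a transcription factor of early and memory lymphocytes, stood the other way, in 47.3% against 33.1% and in 50% against 28.9%. Il5 and Calca were thus found in a smaller share of these cells on both days, and there were fewer such cells on day 10. Gata3, Areg and Il13 were also found in smaller shares of them on day 0, at 52.7%, 15.1% and 16.1%, against 73.9%, 32.5% and 31.6%. On day 10 the shares were 67.9% [47.6 to 84.1], 32.1% [15.9 to 52.4] and 25% [10.7 to 44.9]. These intervals overlapped those of the remaining day 10 cells, so no difference could be detected for these genes. Trdc or Tcrg-C4 was found in 37.7% [29.1 to 46.9] of the day 0 cells with either scavenger receptor gene and in 24.4% [20.5 to 28.7] of the others. On day 10 the shares were 20% [7.71 to 38.6], from 6 of 30 cells, and 14.9% [11.6 to 18.6], a difference not detectable at these numbers. Cd3g had 66 counts on day 0 and 112 on day 10, a ratio of 1.20 [0.74 to 1.66], and Trbc1 had 495 and 639 CPM. The other γδ constant genes Tcrg-C1 and Tcrg-C2 had 12 and 5 counts on day 0 and 8 and 4 on day 10, too few to compare. Without the cells that held Trdc or Tcrg-C4, 57 genes were past the fold upwards and 65 downwards.

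ILC1 and NK genes had a median of 0.12 over 16 genes, with Ccl5 past the fold upwards. Tbx21 had 8 and 9 counts and Ifng 12 and 8 counts, too few for a difference to be detected. The granzymes Gzmb and Gzmc, cytotoxic proteases, were found in 50.7% and 41.0% of cells on day 0 and 47.8% and 41.6% on day 10, with ratios of 0.07 and 0.09. Klrc1, which encodes the inhibitory NK receptor NKG2A, had 29 counts on day 0 and 74 on day 10, a ratio of 1.78 [1.15 to 2.46], in 3.01% and 10.4% of cells. Granzyme transcripts were thus widespread and near level while this 1 NK receptor was higher.

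Among 16 inhibitory and costimulatory receptor genes, 3 were past the fold upwards and 2 downwards, against 1.35% and 1.41% of all genes compared. The higher ones were Lilrb4a, Lilr4b and Havcr2, of which Lilrb4a and Havcr2 encode inhibitory receptors. Lilr4b had 58 and 127 counts, a ratio of 1.56 [1.10 to 2.04], and Lilrb4a 16 and 44 counts, a ratio of 1.89 [1.04 to 2.82]. These neighbours on chromosome 10 are closely related, so reads could have been divided between them. Havcr2, the gene of TIM-3, had 43 and 66 counts, a ratio of 1.05 [0.48 to 1.64]. The lower ones were Cd96, with 142 and 52 counts, and Slamf1, with 74 and 25. Cd27, a costimulatory member of the TNF receptor family, had 295 counts in 31.2% of cells on day 0 and 119 in 18.3% on day 10, a ratio of -0.88 [-1.20 to -0.57].

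Receptor genes for peptides and chemokines differed gene by gene. Ramp1, an accessory chain that makes the calcitonin receptor-like receptor bind CGRP, had 143 counts on day 0 and 40 on day 10, a ratio of -1.41 [-1.95 to -0.89], in 16.8% and 7.27% of cells. Ramp3, a related chain that makes the same receptor bind adrenomedullin, had 1829 and 1166 CPM, a ratio of -0.65 [-0.76 to -0.54]. The receptor gene itself, Calcrl, had 86 counts on both days, 74.4 and 100.4 CPM. Calca had 560.5 and 796 CPM, a ratio of 0.51 [0.35 to 0.66], in 21.8% and 35.0% of cells. The peptide gene was thus higher on day 10 and both accessory chains were lower. For Ramp3 the level was 1238 CPM [927 to 1619] in day 10 cells with Xist alone and 1709 CPM [1617 to 1804] in day 0 cells with Xist alone. Cx3cr1, the receptor of fractalkine, had 114 and 29 counts, a ratio of -1.54 [-2.18 to -0.94]. It was detected in 11.9% and 5.07% of cells. Of 25 homing and residency genes only Cd96 was past the fold, and the median was 0.02, with Cxcr6 at 1839.7 and 1867 CPM.

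Among genes with at least 100 summed counts the lowest ratio was that of Ppp2r3a (chr9:101105084-101251795, minus strand), which encodes a regulatory subunit of protein phosphatase 2A. It had 315 counts on day 0 and 18 on day 10, or 272 and 21 CPM, a ratio of -3.70 [-4.47 to -3.01]. It was found in 228 cells (40.4%) on day 0 and 15 cells (3.30%) on day 10. The third skin library had 11.2 CPM, so the day 0 library stood apart from the other 2. On day 0 the counts were spread evenly, with 161 of the 228 cells at 1 count, a highest cell of 4, and 6.35% of counts in the 5 highest cells. Ppp2r3a was found in 42.9% of Il1rl1 cells and 40.2% of the others, and in 37.6% of 5830411N06Rik cells and 41.0% of the others. Unlike Penk or Il17f, its difference was thus shared by all these kinds of cell. Day 0 cells with Xist alone had 272 CPM, and those with neither Xist nor Y-linked counts 275 CPM. On day 10 the level was 23.4 CPM from 1 count in cells with Xist alone and 22.5 CPM from 10 counts in cells with Y-linked counts alone. Short annotated transcripts, among them Gm37962 and Gm38344, overlap Ppp2r3a on both strands.

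Further genes past the fold had roles outside the lists. Among the higher ones, Socs2, a feedback inhibitor of cytokine signalling, had 41 counts on day 0 and 78 on day 10, and Bcl2, an inhibitor of apoptosis, had 32 and 56. Klf7, a zinc finger transcription factor, had 39 and 69, and Atp10d, a lipid transporter of the plasma membrane, 38 and 72. Ctla2a, a cysteine protease inhibitor, had 506 and 1086 CPM, a ratio of 1.10 [0.95 to 1.25], and was detected in 50% and 70.5% of cells. The non-coding transcript Gm43305 (chr14:54292443-54297456, minus strand) had 54 and 247 counts, a ratio of 2.63 [2.2 to 3.08]. Ctla2a and Gm43305 were likewise chosen after their values were seen. Among the lower ones, Enpp2, which makes lysophosphatidic acid, had 89 and 18 counts, Ppt1, a lysosomal thioesterase, 118 and 35, and Ppm1g, a protein phosphatase, 407 and 145. Tnfrsf1a, the first TNF receptor, had 55 and 15 counts, a ratio of -1.44 [-2.37 to -0.60]. Eno1b, which is nearly identical to the enolase gene Eno1, had 165 and 53 counts, while Eno1 had 188 and 181, and reads of the pair could have been divided between them.

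Metabolic and ribosomal protein lists showed narrow shifts, with 1 gene, Hk2, past the fold. Glycolysis and hypoxia genes had a median of 0.27 over 24 genes, with 17 above 0. Hk2, the inducible hexokinase of the first step, stood against them with 96 counts on day 0 and 32 on day 10, a ratio of -1.15 [-1.78 to -0.56], while Aldoa and Ldha both had 0.33. Of 68 nuclear genes for oxidative phosphorylation, 49 lay below 0, with a median of -0.11. Of 76 ribosomal protein genes, 70 lay above 0, with a median of 0.09. Over all genes compared, 45.7% lay above 0 and the median was -0.03. Survival genes had a median of 0.37 over 16 genes with Bcl2 past the fold, interferon response genes 0.10 over 22, and cell cycle genes 0.18 over 12, with Mki67 in 5.14% and 5.29% of cells. Lipid metabolism genes had a median of -0.05 over 16 and cytoskeleton genes 0.07 over 32. Of 19 genes of the TNF and TNF receptor families, Tnfsf11 and Tnfrsf1a were past the fold downwards, at a median of 0.06. ILC progenitor genes had the lowest median among lists with at least 5 genes compared, -0.14 over 14 genes, with Tcf7 at 309.6 and 244 CPM.

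**Figure D5:**
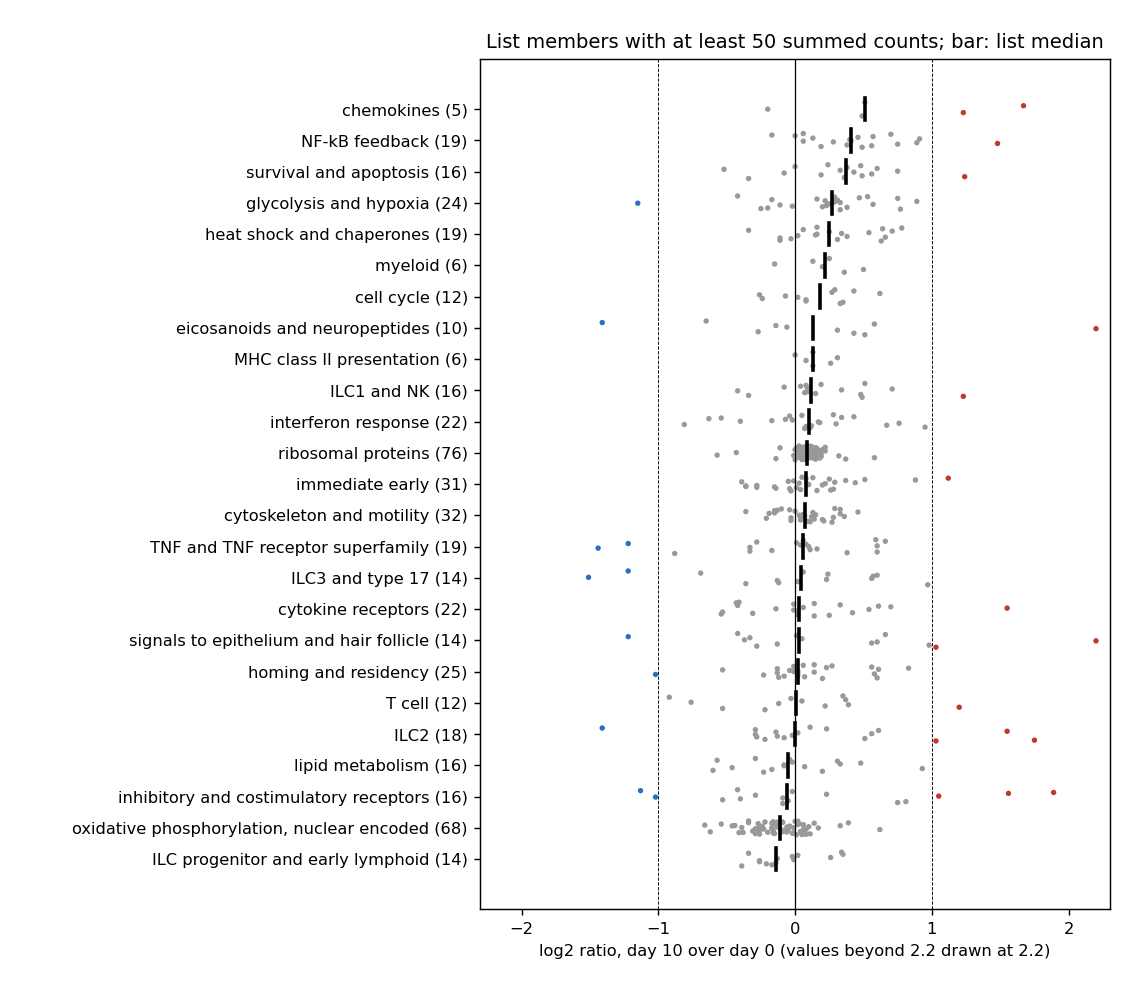
Log2 ratios of day 10 over day 0 (x axis) for the members with at least 50 summed counts of each gene list that had at least 5 of them, 1 point a gene, with the number of genes in brackets and a black bar at the list median. Dashed lines mark 2-fold. Chemokine genes have the highest median, 0.51, and ILC progenitor genes the lowest, -0.14. Penk, at 7.44, is drawn at the right edge.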

How the data were processed

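Single-cell RNA-seq of 2 dorsal skin ILC libraries was analysed from the tables the authors deposited, which hold raw whole-number counts with genes in rows and cells in columns. The submitters' processing notes name mm10, HISAT2 2.1.0, featureCounts and Subread, with no role. The platform, whether reads or molecules were counted, and how cells were called are not given in the sources used here. Total counts were 1204618 and 892449. Doublets were not called. The tables list 0 mitochondrial genes.

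Symbols were matched to GENCODE M21 (35132 of 36125) or RefSeq (563). Unmatched rows held 0.0320% and 0.0208% of counts. Counts of autosomal genes were summed over cells with at least 200 genes and divided by their total. Ratios used no prior count, and list medians a prior of 0.5. Intervals were Poisson (conditional binomial) and Clopper-Pearson at 95%. Python 3.11.15, numpy 2.4.6, pandas 2.3.3, scipy 1.17.1 and matplotlib 3.10.9 were used, and the code was tested on simulated data.

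Named were 14 readout genes, from each of 33 lists the gene with most counts and the 3 with the largest ratios, and, of genes with 100 or more summed counts, the 12 at either end of the ratios, without unnamed gene models, ribosomal, haemoglobin and receptor segment genes. Genes named beside these were chosen after their values were seen. Members and lists were chosen with earlier results of these data known. The alternatives were 11 settings and 1 added after seeing the data, which left out cells with a count of Trdc or Tcrg-C4. Promoter windows are from RefSeq GRCm38.p6. The other 15 samples were not used beyond the level of a gene in the third single-cell library.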

Additional observations from a re-analysis of the deposited data

Results flagged for a closer look

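Both dorsal tables list a row for the reporter tdTomato, which lies outside the autosomal comparison, and neither library's labels name a reporter allele. It was picked out because a signal was present where none was compared. The row held 173 counts on day 0 and 41 counts on day 10, or 144 and 45.9 per 1000000 counts of the library. At least 1 count was found in 115 of 564 cells (20.4% [17.1 to 24.0]) and in 30 of 454 cells (6.61% [4.50 to 9.30]).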

How the results depend on the processing

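With 1 library a day, differences between animals, sex and collection cannot be told apart from the day, and counts limit most genes: 45 of the 69 higher and 52 of the 72 lower genes had under 100 summed counts. No paired analysis was possible because each day had 1 library. The counts of genes past the fold moved with the count minimum and the depth. With at least 20 summed counts 237 were higher and 269 lower, and with at least 200 there were 6 and 5. Those were Areg, Il1rl1, Icam1, Ctla2a, Ccdc184 and Gm43305, and Ppp2r3a, 5830411N06Rik, Ppm1g, Nudt4 and Eno1b. After thinning to 1000 counts 41 were higher and 40 lower, with 3153 genes left to compare. Without cells that held 2 or more genes of a non-ILC list 44 were higher, with 3535 genes left, and with a prior count of 5 there were 31 lower. The other 16 counts stayed within 1.5 times those reported. Il1rl1, Icam1, Cxcl2, Klrc1, Ramp1, Cx3cr1, Il17f and Ppp2r3a were past the fold in all 12 settings, and Penk in the 9 that gave it a value. Cd96, Slamf1, Tnfsf11 and Ppm1g were past the fold in 9 of 12 settings, Hk2 and Tnfrsf1a in 10, Enpp2 in 11 and Cd3g in 9 of 11, all with the same direction throughout. Across settings Hk2 ranged from -1.38 to -0.41, Slamf1 from -1.55 to -0.50, Tnfrsf1a from -1.48 to -0.72 and Enpp2 from -2.23 to -0.85, and the cause was not tested.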
